A study of Mus musculus with 35 samples.

Results

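The enzymes that modify and crosslink collagen are the subject here, as 10 genes: the 5 lysyl oxidases Lox, Loxl1, Loxl2, Loxl3 and Loxl4, the 3 lysyl hydroxylases Plod1, Plod2 and Plod3, and 2 alpha subunits of prolyl 4-hydroxylase, P4ha1 and P4ha2. They were taken by gene symbol out of 22830 symbols in the count tables, and all 10 passed the filter on low counts in every comparison. Prolyl 4-hydroxylases act in the endoplasmic reticulum, where they turn prolines of the new procollagen chain into hydroxyproline, which the triple helix needs for thermal stability. Lysyl hydroxylases modify lysines of the same chains, and PLOD2 is known for acting on the telopeptides at the chain ends, which sets the type of crosslink. Lysyl oxidases are copper enzymes that work mostly outside the cell, where they oxidise lysine and hydroxylysine so that neighbouring collagen or elastin molecules join, and in a healing skin wound fibroblasts are a known source of all 3 kinds of enzyme.

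RNA of full thickness wounds on the back of male and female adult mice was sequenced from a punch of the middle of the wound, in 35 libraries. Every animal was homozygous for a floxed Col5a1 gene, which encodes the alpha 1 chain of the fibril-nucleating type V collagen, and every animal received tamoxifen. WT animals lacked Cre, while Col5a1CKO animals carried Col1a2CreERT, a tamoxifen-inducible Cre driven by a Col1a2 enhancer in fibroblasts, so that the other cells of these wounds keep the floxed gene. Day 14 was sampled in 7 WT and 7 Col5a1CKO wounds, and day 19 in 3 wounds of each genotype. Another 3 Col5a1CKO wounds of day 14 had received WT fibroblasts by intradermal injection. The paper lists the 7 WT and 7 Col5a1CKO animals as given vehicle, with PBS as the control for fibroblasts, while the sample titles name no vehicle. A separate experiment at day 14 held 4 WT wounds with vehicle, 4 Col5a1CKO wounds with vehicle and 4 Col5a1CKO wounds with cilengitide. Cilengitide is a cyclic peptide inhibitor of αv integrins and was given daily from before wounding. Below, wounds called with vehicle are those of this separate experiment. The treatment field of the record names WT fibroblasts for the 3 Col5a1CKO wounds of day 19, whereas their titles do not, and the titles were followed.

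Each wound of the fibroblast and time course table had 15043531 to 35700337 counts, and each of the cilengitide experiment 51211600 to 68266760. In the first table the level of GC-rich relative to GC-poor genes split the libraries in a lower and an upper set, 1.54 apart in log2 units, where the next widest step was 0.395. WT wounds a, b, c and d and Col5a1CKO wounds a, b, c, d and e of day 14 made up the lower set. WT wounds e, f and g, Col5a1CKO wounds f and g, the 3 wounds with WT fibroblasts and all day 19 wounds made up the upper set. Within the upper set the day 14 WT libraries carried Y-linked RNA and the Col5a1CKO libraries carried Xist, so genotype and sex cannot be told apart there. The targeted Col5a1 had a median normalised level of 851 CPM (a gene's counts scaled to a common library total) in WT and 369 in Col5a1CKO wounds at day 14, a log2 difference of -1.43 (adjusted p = 0.0757, standard error 0.49), and in the cilengitide experiment 1503 in WT and 596 in Col5a1CKO wounds with vehicle. The WT and Col5a1CKO ranges of Col5a1 overlapped at both days and in the cilengitide experiment, and the difference did not pass the test in any of these. The adjusted p is over all genes tested. The paper tested Col5a1 alone at day 14 and reports a significant decrease by PCR and by RPKM (Mann-Whitney test). The counts cover the whole transcript, and the deleted exons were not counted apart. These are whole wounds, in which fewer cells of a type and less RNA per cell cannot be told apart.

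In build NCBIM37, Loxl1 (chr9:58135530-58161019, minus strand) shares its chromosome with Plod2 (chr9:92437061-92503266, plus strand), while Loxl2 (chr14:70008978-70095640), Loxl3 (chr6:82984167-83002556), Plod3 (chr5:137462889-137472518), P4ha1 (chr10:58786044-58836052) and P4ha2 (chr11:53913597-53945167) lie on plus strands and Loxl4 (chr19:42668472-42687303) and Plod1 (chr4:147283862-147310876) on minus strands. Counts are of whole transcripts, exons only.

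Among the lysyl oxidases, Loxl2 had the highest level per length and Loxl4 the lowest. In RPKM, the CPM divided by transcript length in kilobases, Loxl2 ranged from 11.1 to 92.3 with a median of 53.0 in WT wounds at day 14, Lox from 6.33 to 119 with a median of 45.8, and Loxl1 from 9.17 to 48.6 with a median of 15.5. Loxl3 had a median of 1.72 RPKM and Loxl4 of 0.370 RPKM in the same wounds. Loxl2 led the median RPKM of the 10 genes in 4 of the 5 groups of this table, and Loxl1 led in WT wounds at day 19, with 118 RPKM against 97.6 for Loxl2. Those 3 WT wounds ranged from 20.4 to 135 RPKM for Loxl1 and from 17.7 to 160 for Loxl2, so the order of these neighbours was within their spread. Loxl4 was the lowest of the 10 in all 5 groups, with medians of 0.370 to 2.24 RPKM.

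The hydroxylases lay between the abundant and the rare oxidases by median RPKM at day 14, except that Plod2 (5.54) was under Loxl3 (6.98) in wounds with WT fibroblasts. In Col5a1CKO wounds at day 14 the order of the median RPKM was P4ha2 (28.8), Plod3 (25.8), Plod1 (22.4), P4ha1 (18.6) and Plod2 (17.9), and the ranges of all 5 overlapped one another. Plod2 ranged from 0.912 to 16.3 RPKM in WT wounds of day 14, while Plod1 spanned 5.38 to 15.5. At day 19 Plod2 was the lowest of the 3 lysyl hydroxylases in both genotypes, with medians of 5.67 RPKM in WT and 17.0 in Col5a1CKO wounds, and Plod1 and Plod3 of WT wounds had medians of 29.9 and 24.5 RPKM.

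**Figure D1:**
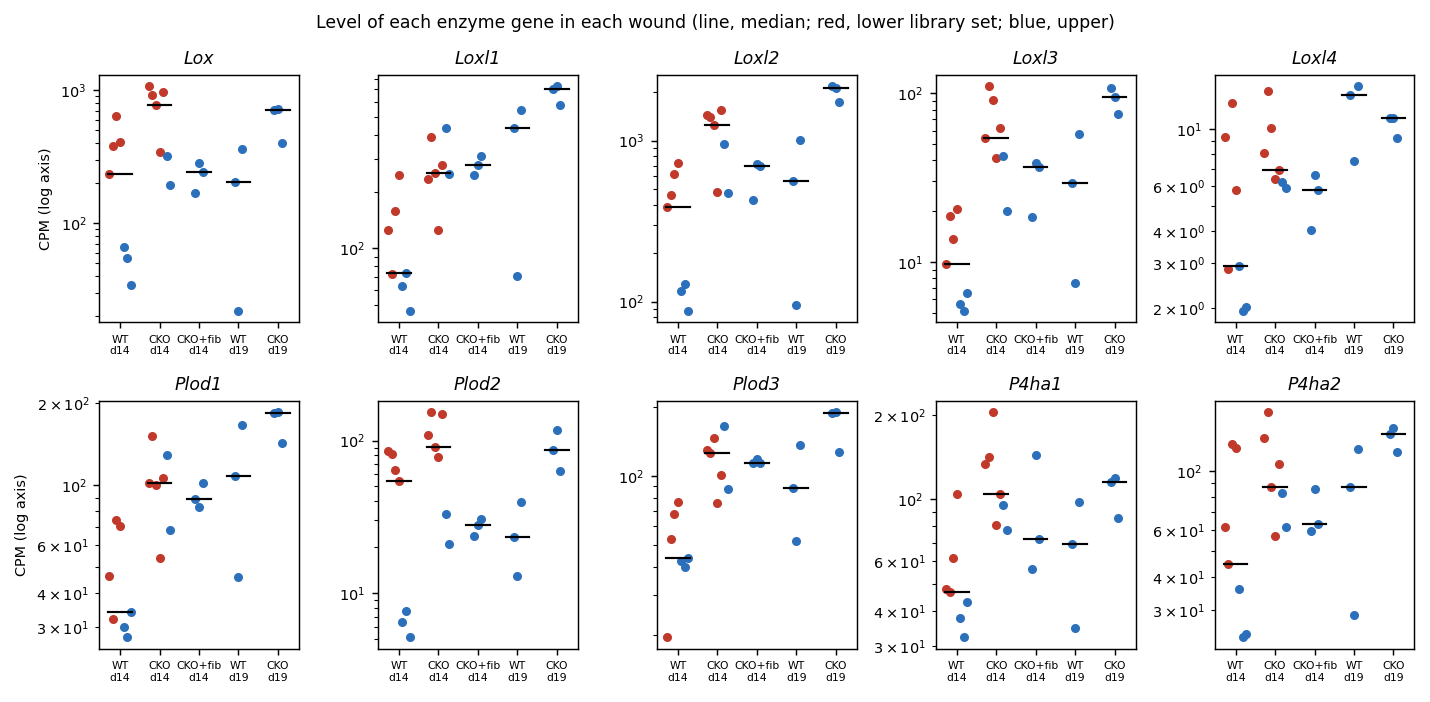
CPM of each enzyme gene on a log axis in the 23 wounds of the fibroblast and time course table, by group, with a point per wound, a line at the median, red for the lower and blue for the upper library set. Among WT wounds of day 14 the blue points of Plod2 lie at 5.12 to 7.60 CPM and the red points at 54.4 to 85.1.

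The level of several enzymes differed between the library sets. Among the 7 WT wounds of day 14, Plod2 had 85.1, 82.2, 64.5 and 54.4 CPM in replicates a to d of the lower set and 6.44, 7.60 and 5.12 CPM in replicates e to g of the upper set. The sets were themselves defined from these counts, so their differences are given as a description with no test. The fitted difference of the upper from the lower set was -3.55 for Plod2, -3.06 for Lox, -2.37 for Loxl2 and -0.43 for Plod3 on the log2 scale.

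The transcripts of Lox and Plod2 are the least GC-rich of the 10, at 42.6% and 43.0%, and those of Plod3 and Loxl1 the most, at 57.8% and 60.8%. P4ha1 has 45.7% GC and a difference of -0.85, and P4ha2 has 54.2% and a difference of -1.72. The collagen gene Col1a1 was also lower in WT replicates e to g, with 2475 to 2930 CPM, than in replicates a to d, with 5207 to 18062 CPM. The summed fibroblast markers were 8529 to 9668 CPM in WT replicates a to d and 515 to 535 CPM in replicates e to g. The summed keratinocyte markers lay the other way, at 32540 to 35950 CPM in a to d and 107000 to 159800 CPM in e to g. The leukocyte sums, 2298 to 9339 and 1398 to 3371 CPM, overlapped, and their largest parts were S100a8 and S100a9 (means of 1465 and 2137 CPM in WT wounds of day 14). What part the cell mixture, GC content, the library preparation, the wounds themselves and their sex have in this split was not tested.

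The make-up of each enzyme family followed the same split. Plod2 took 24.4% to 53.2% of the summed RPKM of the 3 lysyl hydroxylases in the lower-set WT wounds of day 14 and 5.50% to 9.04% in the upper-set ones. In Col5a1CKO wounds of day 14 its share was 24.5% to 38.9% in the lower set and 8.94% and 10.5% in the upper set. Within the upper set alone, Plod2 had a median of 10.8% in wounds with WT fibroblasts, 9.44% to 10.4% in WT wounds at day 19 and 17.0% to 21.5% in Col5a1CKO wounds at day 19. The last group lay above every other upper-set group without overlap. Lox took 34.1% to 50.3% of the summed RPKM of the 5 lysyl oxidases in lower-set WT wounds and 22.6% to 30.0% in the upper-set ones.

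**Figure D2:**
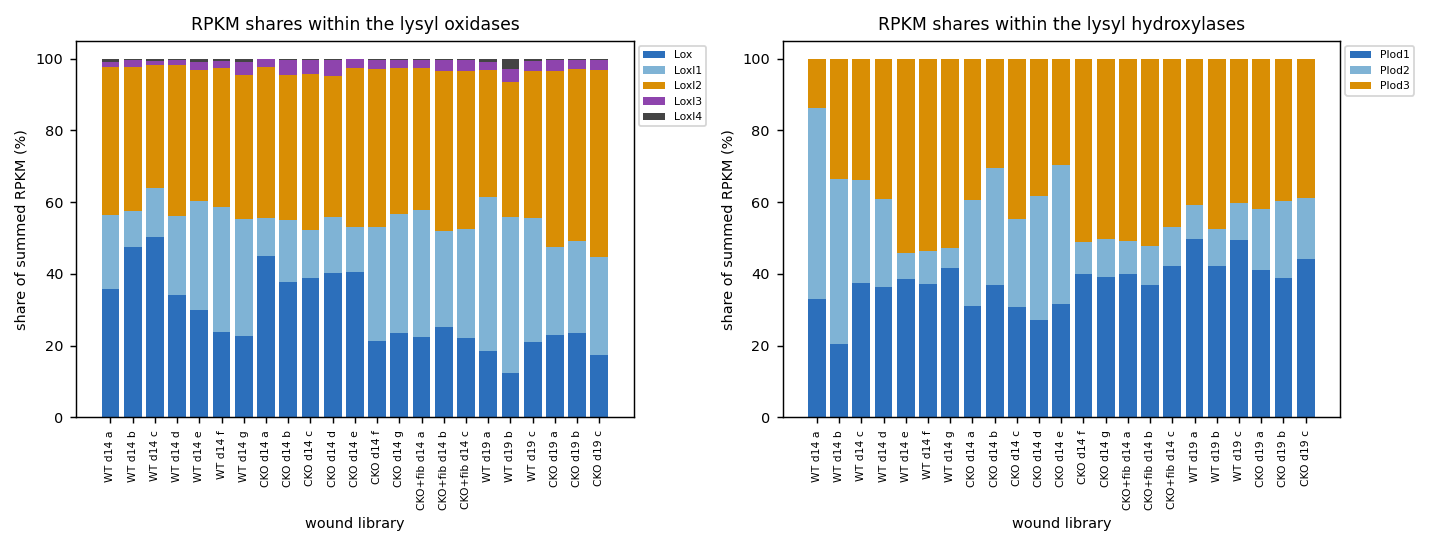
Stacked bars of the share (%) of each gene in the summed RPKM of the 5 lysyl oxidases (left) and the 3 lysyl hydroxylases (right), with a bar per wound of the fibroblast and time course table. The Plod2 share is 24.4% to 53.2% in WT replicates a to d of day 14 and 5.50% to 9.04% in replicates e to g.

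The Plod2 gene has an alternative exon of 63 bases, which encodes 21 codons, at chr9:92496823-92496885 on the plus strand of mouse build NCBIM37, and the 2 RefSeq transcripts of the table differ by it. Its sequence is shown because the difference between both counts rests on it alone.

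Plod2 alternative exon: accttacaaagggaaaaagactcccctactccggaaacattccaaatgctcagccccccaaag

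The longer transcript holds all of the shorter one, so its count cannot be the lower. The exon makes up 63 of the 3711 bases of the longer transcript. The surplus of counts is therefore small even where every transcript holds the exon, and it is not the share of transcripts that hold it. The surplus of the longer, pooled over the wounds of a group, was 1.10% of its counts in WT and 1.64% in Col5a1CKO wounds at day 14, 1.57% in wounds with WT fibroblasts, and 1.99% and 2.51% in WT and Col5a1CKO wounds at day 19. Single WT wounds of day 14 ranged from 0% to 3.12%, which spans all of these, so no order of the groups can be read from them.

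At day 14, over both library sets together, the Col5a1CKO wounds had more RNA for enzymes of all 3 kinds than WT wounds. Of the 10 genes, 5 rose at least 2-fold at an adjusted p under 0.05: Loxl1, Loxl3, Plod1, Plod3 and P4ha1. Over all 14367 genes tested, 5.57% rose and 2.71% fell by that rule. All 10 fitted fold changes lay above 1, with a median log2 value of 1.24 beside -0.03 over all genes. None of the 10 separated the 7 WT from the 7 Col5a1CKO wounds without overlap, which 2.31% of all genes did by being higher.

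Loxl3, a lysyl oxidase that is low in both genotypes, had the largest fold change of the 10. It had 5.12 CPM in the lowest, 9.78 in the median and 20.6 in the highest of 7 WT wounds, and 20.1, 54.2 and 111 CPM in the lowest, median and highest of 7 Col5a1CKO wounds. Only the lowest Col5a1CKO wound lay within the WT range. The fold change was 5.23, or 2.39 on the log2 scale (adjusted p = 0.00617, standard error 0.42). Loxl1, which acts mainly on elastin, had 46.3, 73.8 and 245 CPM in the lowest, median and highest WT wound and 125, 252 and 439 CPM in the Col5a1CKO wounds, a rise of 2.53-fold (adjusted p = 0.0362). Loxl1 lost its call when any of 9 single libraries was left out (WT b, e, f and g, Col5a1CKO a, b, c, e and f), with adjusted p from 0.0574 to 0.0785.

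Lox and Loxl2 had the highest levels of the family but did not pass the test. Lox had 34.5, 232 and 633 CPM in the lowest, median and highest WT wound and 192, 776 and 1075 CPM in the Col5a1CKO wounds, a log2 fold change of 1.33 (adjusted p = 0.182, standard error 0.62). Loxl2 had 87.4, 386 and 723 CPM in WT and 474, 1247 and 1541 CPM in Col5a1CKO wounds, with a log2 fold change of 1.57 (adjusted p = 0.056, standard error 0.50). Every Col5a1CKO wound lay above the WT median for Loxl2, and 6 of 7 did for Lox. Loxl2 passed when WT replicate c or d or Col5a1CKO replicate d or g was left out, at adjusted p of 0.0369 to 0.0456.

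Of the lysyl hydroxylases, Plod3, which also has glycosyltransferase activity, had 19.6, 43.4 and 77.1 CPM in the lowest, median and highest WT wound and 76.4, 126 and 166 CPM in the Col5a1CKO wounds. The groups overlapped only at the lowest Col5a1CKO wound, and Plod3 rose 2.45-fold (log2 1.30, adjusted p = 0.0109, standard error 0.28). Plod1 rose 2.27-fold (adjusted p = 0.0219), from 27.5 to 74.4 CPM in WT to 54.0 to 152 CPM in Col5a1CKO wounds. Its adjusted p was 0.050 without Col5a1CKO replicate b. Plod2 ranged from 5.12 to 85.1 CPM in WT and from 20.9 to 154 in Col5a1CKO wounds, and its log2 fold change of 1.02 (adjusted p = 0.34, standard error 0.67) did not pass.

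P4ha1, a hypoxia-responsive alpha subunit, had 32.2, 46.5 and 104 CPM in the lowest, median and highest WT wound. In the Col5a1CKO wounds it had 77.7, 104 and 204 CPM. It rose 2.25-fold (log2 1.17, adjusted p = 0.0202, standard error 0.29), with 7 of 7 Col5a1CKO wounds above the WT median. P4ha2 had a log2 fold change of 0.66 (adjusted p = 0.311, standard error 0.41). Reads of Loxl3 and Plod3 could in part come from genes on the opposite strand, since 12.8% of the exon bases of Loxl3 lie over Htra2 and 11.7% of those of Plod3 over Znhit1, and the strand setting of the counting is not given in the sources used here.

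Within the library sets the day 14 fold changes were unequal. In the lower set, with 4 WT and 5 Col5a1CKO wounds, 2 of the 10 genes were called higher: Loxl3 with a log2 fold change of 2.18 (adjusted p = 0.00722) and Loxl2 with 1.15 (adjusted p = 0.0497), where 3.68% of genes rose. No hydroxylase was called in the lower set. In the upper set, with 3 WT and 2 Col5a1CKO wounds, all 10 were called higher, from 1.30 for P4ha1 to 2.78 for Loxl2, where 8.81% of genes rose. In the upper set the WT wounds carried Y-linked RNA and the Col5a1CKO wounds Xist, so genotype and sex cannot be told apart. The summed fibroblast markers there were 515 to 535 CPM in WT and 4116 and 2119 CPM in Col5a1CKO wounds. The part of the cell mixture was not tested. With the set as a covariate 8 were called, all but Loxl4 and P4ha2, beside 9.04% of genes. Loxl3 was the gene with a log2 fold change above 2 in both sets.

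**Figure D3:**
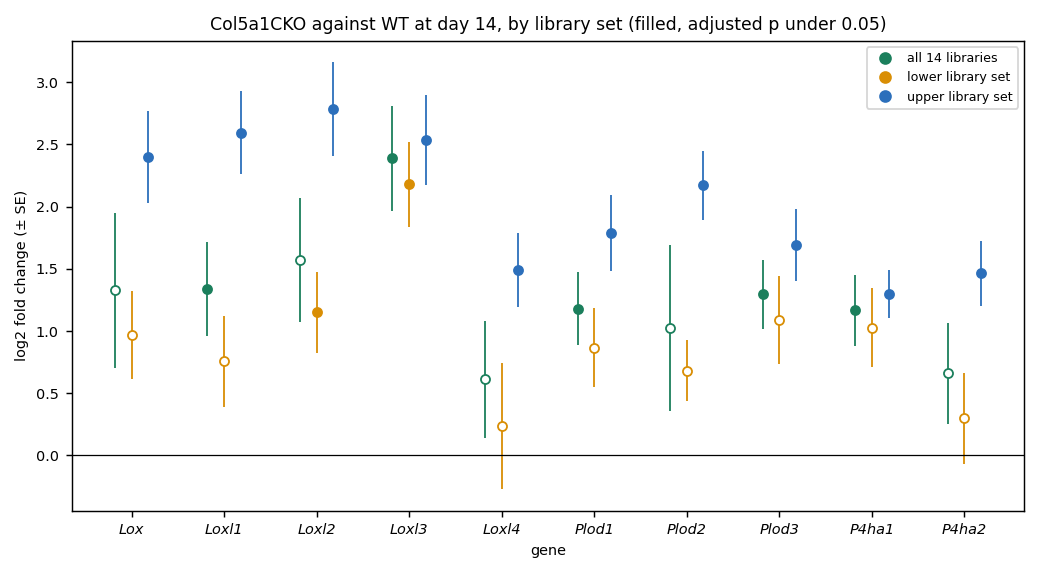
Log2 fold change of Col5a1CKO against WT wounds at day 14 for each enzyme gene, with bars of 1 standard error, in all 14 libraries, within the lower library set and within the upper library set. Filled points passed an adjusted p under 0.05, and the values of Loxl2 are 1.57, 1.15 and 2.78 in that order.

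At day 19 none of the 10 enzymes passed the test between Col5a1CKO and WT wounds. Over 15135 genes, 3 (0.0198%) were called higher and none lower by edgeR, although 1786 had a higher and 1866 a lower level at an unadjusted p under 0.05. Lox, Loxl1, Loxl2, Loxl3 and Plod2 were higher in each of the 3 Col5a1CKO than in each of the 3 WT wounds, 5 of 10 genes beside 16.4% of all genes. DESeq2 called Plod2 alone among the 10, and 3.74% of genes higher.

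Loxl2 had 560, 95.8 and 1005 CPM in the 3 WT wounds of day 19 and 2189, 2119 and 1725 CPM in the Col5a1CKO wounds. WT replicate b was far under both other WT wounds, and the groups did not overlap (log2 fold change 1.89, adjusted p = 0.229, standard error 0.84). Plod2 had 23.3, 13.0 and 39.3 CPM in WT and 87.2, 117 and 63.1 CPM in Col5a1CKO wounds, with a log2 fold change of 1.87 (adjusted p = 0.132, standard error 0.49). Without WT replicate c it passed (2.37, adjusted p = 0.0462). Lox had 204, 21.9 and 361 CPM in WT and 711, 725 and 398 CPM in Col5a1CKO wounds (adjusted p = 0.304). WT replicate b was the lowest WT wound for Lox, Loxl1, Loxl2, Loxl3 and Plod2 alike.

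Loxl4 was the one enzyme with a fitted fold change under 1 at day 19. It had 13.6, 7.48 and 14.8 CPM in WT and 11.1, 11.1 and 9.25 CPM in Col5a1CKO wounds, which overlapped (log2 fold change -0.14, adjusted p = 0.81). The change of genotype effect between both days was tested as an interaction, and none of the 10 passed (adjusted p = 0.9999 for each, with differences from -0.82 for Plod2 to 0.82 for Loxl3). Of the 15954 genes in that fit none was called by edgeR, and 939 had an unadjusted p under 0.05, so the calls at day 14 and their absence at day 19 are not shown to differ.

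From day 14 to day 19, Loxl1 was the enzyme that rose, and in Col5a1CKO wounds. It had 125, 252 and 439 CPM in the lowest, median and highest of the 7 Col5a1CKO wounds of day 14 and 708, 732 and 580 CPM at day 19. The groups did not overlap, as for 7.67% of all genes, and the rise was 2.38-fold (log2 1.25, adjusted p = 0.042, standard error 0.32), where 1.87% of 15327 genes rose and 3.85% fell. The call was lost without Col5a1CKO replicate a, b, c or e of day 14 or any replicate of day 19 (adjusted p of 0.0542 to 0.17), and within the upper library set the log2 fold change was 1.01 (adjusted p = 0.184). Loxl2 also did not overlap, at 474 to 1541 CPM and 1725 to 2189 CPM (log2 0.89, adjusted p = 0.174).

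In WT wounds none of the 10 passed between the days, where 1.5% of 15180 genes rose and 4.25% fell. The log2 fold changes were 1.70 for Loxl1 (adjusted p = 0.123), 1.51 for Loxl3 (adjusted p = 0.175) and 1.30 for Plod1 (adjusted p = 0.112), and those of Lox and Plod2 were -0.36 and -0.78. Every day 19 wound is in the upper library set, and within that set Loxl1, Loxl3, Loxl4, Plod1, Plod2 and Plod3 rose, 6 of 10 genes beside 14.2% of all genes. Plod2 then had a log2 fold change of 2.14 (adjusted p = 0.0194) and Loxl4 of 2.53 (adjusted p = 0.00821). Leaving out WT replicate b of day 19 brought calls of Loxl1 (2.28, adjusted p = 0.0385) and Plod1 (1.76, adjusted p = 0.0445) over both library sets.

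Col5a1CKO wounds injected with WT fibroblasts were set against Col5a1CKO wounds, and against WT wounds, to see whether the enzymes moved towards WT. These comparisons share samples with that of both genotypes at day 14. Against Col5a1CKO wounds none of the 10 passed the test, and all 10 fitted fold changes lay under 1. Over 15659 genes none was called higher or lower by edgeR (0%), while 201 had a higher and 1800 a lower level at an unadjusted p under 0.05, and DESeq2 called 9 and 10 genes, none of the 10 enzymes.

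Plod2 had 23.7, 27.9 and 30.5 CPM in the 3 wounds with WT fibroblasts and 20.9, 91.2 and 154 CPM in the lowest, median and highest Col5a1CKO wound, a log2 fold change of -1.73 (adjusted p = 0.365, standard error 0.58). Lox had 168, 283 and 243 CPM and 192, 776 and 1075 CPM in the same order (-1.50, adjusted p = 0.365). Plod3, by contrast, had 114, 119 and 114 CPM with fibroblasts and 76.4, 126 and 166 CPM without (-0.04, standard error 0.25). All 3 wounds with fibroblasts are in the upper library set, and 5 of the 7 Col5a1CKO wounds in the lower one. Within the upper set, with 2 Col5a1CKO wounds, the 10 log2 fold changes lay between -0.26 and 0.12, and those of Plod2 and Lox were 0.08 (standard error 0.27) and -0.08 (standard error 0.35).

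Against WT wounds, those with WT fibroblasts had more Plod3. Plod3 was at 19.6 to 77.1 CPM in the 7 WT wounds and 114 to 119 CPM in the 3 with fibroblasts, which did not overlap, and it rose 2.61-fold (log2 1.38, adjusted p = 0.0329, standard error 0.34), where 3.77% of 15316 genes rose and 2.06% fell. The call was lost without WT e, f or g or any of the 3 wounds with fibroblasts (adjusted p of 0.0549 to 0.151). Loxl1 (46.3 to 245 CPM and 246 to 308 CPM) and Plod1 (27.5 to 74.4 CPM and 83.1 to 102 CPM) did not overlap either, where 9.92% of all genes lay higher without overlap, and had adjusted p of 0.0843 and 0.0746. Within the upper set, where WT wounds carried Y-linked RNA and those with fibroblasts Xist, all 10 were called higher beside 19.8% of genes, from 1.41 for Loxl4 to 2.63 for Loxl2 on the log2 scale.

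In the cilengitide experiment, Col5a1CKO wounds with vehicle had more RNA for 8 of the 10 enzymes than WT wounds with vehicle. Lox, Loxl2, Loxl3, all 3 lysyl hydroxylases and both prolyl 4-hydroxylase subunits rose, where 17.5% of 15434 genes rose and 13.4% fell. The same 8 had every Col5a1CKO wound above every WT wound, which 24.1% of all genes had. The median log2 fold change of the 10 was 1.87, beside 0.02 over all genes. Levels between genes are not compared in this table, which gives no lengths.

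Loxl3 had 16.7, 17.4, 6.94 and 2.88 CPM in the WT and 103, 81.6, 41.6 and 41.0 CPM in the Col5a1CKO wounds with vehicle, a 5.94-fold rise (log2 2.57, adjusted p = 0.0112, standard error 0.62). Loxl2, known for acting on collagen IV as well as fibrillar collagen, had 324, 386, 162 and 84.8 CPM in WT and 1836, 1677, 1136 and 674 CPM in Col5a1CKO wounds. Replicate 4 was the lowest wound of both groups for Loxl2, and the rise was 5.42-fold (log2 2.44, adjusted p = 0.0093, standard error 0.56). Lox had 221, 132, 84.0 and 36.7 CPM in WT and 793, 891, 512 and 334 CPM in Col5a1CKO wounds, a 5.22-fold rise (log2 2.38, adjusted p = 0.0118, standard error 0.58).

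Loxl1 and Loxl4 were the exceptions. Loxl1 had 220, 155, 86.8 and 34.1 CPM in WT and 456, 539, 238 and 174 CPM in Col5a1CKO wounds, which overlapped through WT replicate 1 and Col5a1CKO replicate 4 (log2 fold change 1.47, adjusted p = 0.0761, standard error 0.60). Loxl4 had 8.39, 9.71, 3.63 and 4.01 CPM and 18.005, 15.5, 12.8 and 7.70 CPM in the same order (1.03, adjusted p = 0.0681). Loxl4 passed without WT replicate 2 (1.30, adjusted p = 0.0436) or Col5a1CKO replicate 4 (1.27, adjusted p = 0.0324).

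Among the hydroxylases Plod3 had the smallest adjusted p of the 10. It had 70.2, 68.7, 47.6 and 33.0 CPM in WT and 208, 175, 186 and 156 CPM in Col5a1CKO wounds, with no Col5a1CKO wound under 156, and rose 3.21-fold (log2 1.68, adjusted p = 0.00191, standard error 0.25). Plod1 rose 3.49-fold (adjusted p = 0.006) from 21.3 to 64.5 CPM to 121 to 178 CPM. Plod2 had 20.1, 17.4, 10.3 and 6.92 CPM in WT and 68.3, 99.9, 40.9 and 39.0 CPM in Col5a1CKO wounds, and rose 4.42-fold (log2 2.14, adjusted p = 0.0063, standard error 0.44). P4ha2 rose 2.32-fold (log2 1.21, adjusted p = 0.0171), and its adjusted p was 0.0504 without WT replicate 3.

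P4ha1 had another order of wounds than the rest. It had 76.8, 64.9, 49.1 and 43.6 CPM in WT and 164, 139, 288 and 334 CPM in Col5a1CKO wounds, and rose 3.82-fold (log2 1.93, adjusted p = 0.003, standard error 0.33). Col5a1CKO replicates 3 and 4, the highest for P4ha1, were the lowest for Lox, Loxl1, Loxl2 and Plod2. The summed level of 12 hypoxia-induced genes was 1749, 964, 5669 and 7773 CPM in Col5a1CKO replicates 1 to 4. That of 8 leukocyte markers was 5304, 2803, 25890 and 46490 CPM, with the same 2 wounds highest. In WT wounds with vehicle the sums were 1458 to 2243 CPM for the hypoxia-induced genes and 237 to 2469 CPM for the leukocyte markers. Col5a1CKO replicates 1 and 2 were not above WT in the hypoxia sum, whereas every Col5a1CKO replicate was in the leukocyte sum. S100a8 and S100a9 were the largest parts of that sum, with means of 6391 and 10650 CPM in Col5a1CKO wounds with vehicle. Ptprc and Itgam had means of 675 and 837 CPM there. The part of hypoxia or of leukocytes in the P4ha1 level was not tested.

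The promoters of the hydroxylase genes are shown because hypoxia-inducible factors, of which P4ha1 is a known target, bind sequences with the core ACGTG or GCGTG. Of the 10 genes, 5 have an entry in the RefSeq promoter table used here (Loxl4, Plod1, Plod3, P4ha1 and P4ha2). The 250 bases before the start site of build GRCm38.p6 were searched for both letter strings on either strand, and matches are in capitals. Plod3 (chr5:136986769-136987018, plus strand) held 4 matches, P4ha1 (chr10:59323046-59323295, plus strand) 3 and P4ha2 (chr11:54100674-54100923, plus strand) 3.

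Plod3: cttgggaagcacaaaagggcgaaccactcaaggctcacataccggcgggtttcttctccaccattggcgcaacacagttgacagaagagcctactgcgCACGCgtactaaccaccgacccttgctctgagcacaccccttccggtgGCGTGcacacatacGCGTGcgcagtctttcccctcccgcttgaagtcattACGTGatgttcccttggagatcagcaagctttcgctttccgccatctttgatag

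P4ha1: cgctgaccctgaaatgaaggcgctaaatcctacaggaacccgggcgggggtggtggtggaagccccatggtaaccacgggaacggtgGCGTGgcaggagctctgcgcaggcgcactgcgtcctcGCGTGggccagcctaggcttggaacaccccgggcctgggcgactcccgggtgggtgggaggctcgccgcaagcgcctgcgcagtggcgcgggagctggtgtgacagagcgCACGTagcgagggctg

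P4ha2: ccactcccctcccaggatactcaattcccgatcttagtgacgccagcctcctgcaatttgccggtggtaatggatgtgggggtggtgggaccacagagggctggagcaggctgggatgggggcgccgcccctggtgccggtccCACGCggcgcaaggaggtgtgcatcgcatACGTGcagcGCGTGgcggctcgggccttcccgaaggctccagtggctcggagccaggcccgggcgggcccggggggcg

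Plod1 and Loxl4 held 1 match each. Of 32851 mouse promoters of the same length, 38.6% held at least 1 match, 6.58% at least 3 and 2.58% at least 4. A match is a description of the letters, and no binding was measured.

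P4ha1 was lower in Col5a1CKO wounds given cilengitide than in those given vehicle. P4ha1 had 68.1, 108, 87.0 and 104 CPM with cilengitide, each under all 4 Col5a1CKO wounds with vehicle (164, 139, 288 and 334 CPM), and fell 2.51-fold (log2 -1.33, adjusted p = 0.0216, standard error 0.31). It was the 1 of the 10 that fell at least 2-fold, where 6.59% of 15563 genes fell and 6.48% rose. The summed hypoxia-induced genes were at 2054 to 2739 CPM with cilengitide, within the range with vehicle. The P4ha1 call was lost without vehicle replicate 3 (log2 -1.21, adjusted p = 0.058), cilengitide replicate 1 (-1.15, adjusted p = 0.063) or cilengitide replicate 3 (-1.24, adjusted p = 0.0603).

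Another 3 enzymes fell by less than 2-fold, which makes 4 of 10 at an adjusted p under 0.05, beside 12.2% of genes. Plod3 had 93.8, 108, 107 and 108 CPM with cilengitide, against 208, 175, 186 and 156 CPM with vehicle. The groups did not overlap, as for Plod1 and P4ha1 and 13.4% of all genes, and Plod3 fell 1.73-fold (log2 -0.79, adjusted p = 0.00731, standard error 0.13). Plod1 had 82.0, 97.0, 102 and 86.3 CPM with cilengitide and 178, 170, 157 and 121 CPM with vehicle, and fell 1.69-fold (adjusted p = 0.0128). Loxl4 fell 1.88-fold (adjusted p = 0.0455), but its groups overlapped. Its adjusted p was over 0.05 without any one of 7 of the 8 wounds, all but vehicle replicate 4 (0.0805 to 0.146). Plod1 had an adjusted p of 0.0622 without cilengitide replicate 1.

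The abundant lysyl oxidases did not pass with all 8 wounds. Lox had 206, 328, 326 and 377 CPM with cilengitide, a log2 fold change of -1.02 (adjusted p = 0.0608, standard error 0.34), and only cilengitide replicate 4 lay above the lowest wound with vehicle, at 334 CPM. Loxl2 had 497, 882, 687 and 931 CPM with cilengitide (-0.82, adjusted p = 0.129), and Loxl3 had 27.8, 42.0, 36.0 and 38.0 CPM (-0.89, adjusted p = 0.0772). Without vehicle replicate 4 all of them passed at over 2-fold, with -1.23 for Lox (adjusted p = 0.0139), -1.04 for Loxl2 (adjusted p = 0.0283) and -1.06 for Loxl3 (adjusted p = 0.033). Plod2, Loxl1 and P4ha2 had log2 fold changes of -0.42, -0.38 and -0.22, with adjusted p from 0.473 to 0.483.

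**Figure D4:**
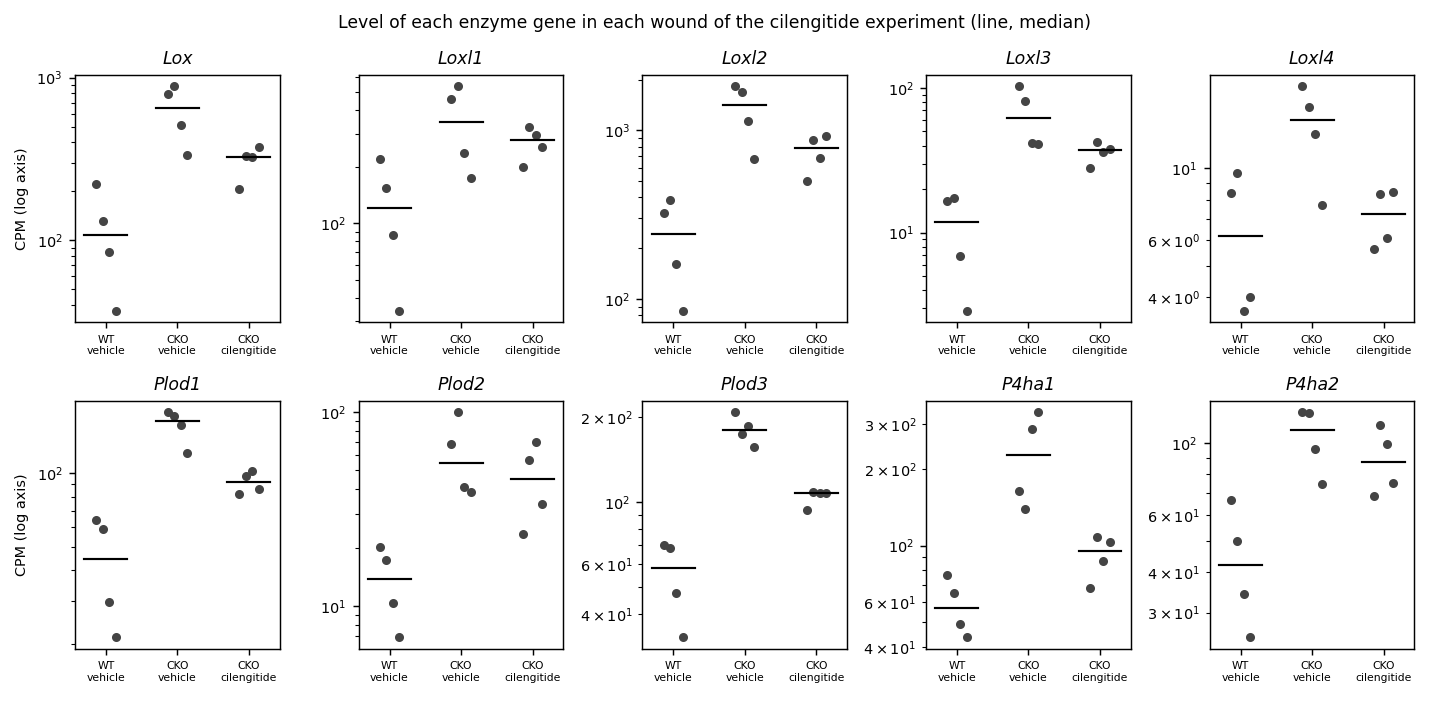
CPM of each enzyme gene on a log axis in the 12 wounds of the cilengitide experiment, with a point per wound and a line at the median of each group of 4. The cilengitide points of Plod3 lie at 93.8 to 108 CPM, between 33.0 to 70.2 CPM for WT with vehicle and 156 to 208 CPM for Col5a1CKO with vehicle.

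Against WT wounds with vehicle, Col5a1CKO wounds with cilengitide still had more Loxl2, Loxl3, Plod2 and P4ha2, where 5.15% of 15514 genes rose and 3.43% fell. The rises were 3.13-fold for Loxl2 (adjusted p = 0.0408), 3.28-fold for Loxl3 (adjusted p = 0.0484), 3.35-fold for Plod2 (adjusted p = 0.0312) and 2.03-fold for P4ha2 (adjusted p = 0.0482). Plod3 rose 1.90-fold (adjusted p = 0.0279), which made 5 of 10 without the fold limit beside 9.53% of genes, and P4ha1 had a log2 fold change of 0.64 (adjusted p = 0.054). In 6 of the 10 genes each wound with cilengitide lay above each WT wound, beside 14.5% of all genes. Each of the 5 with an adjusted p under 0.05 no longer had it when 1 of several single wounds was left out. Among these wounds was WT replicate 3 for all 5 (adjusted p of 0.0741 to 0.116). Both comparisons of the cilengitide wounds share samples with the one between the vehicle groups.

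**Figure D5:**
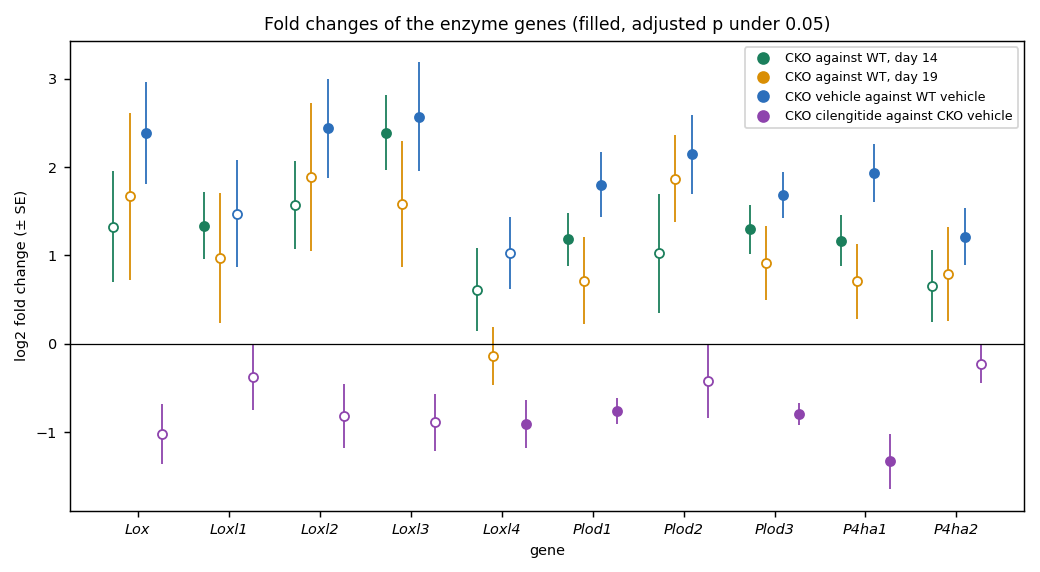
Log2 fold change of each enzyme gene with bars of 1 standard error in 4 comparisons, Col5a1CKO against WT at day 14, at day 19 and with vehicle, and cilengitide against vehicle in Col5a1CKO wounds. Filled points passed an adjusted p under 0.05, which 8 genes did with vehicle and none at day 19.

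The cell type markers moved in the same comparisons. Between the vehicle groups 5 of 8 keratinocyte markers fell, from a summed 63420 to 100700 CPM in WT to 73.0 to 12610 CPM in Col5a1CKO wounds, 7 of 8 leukocyte markers rose, from 237 to 2469 CPM to 2803 to 46490 CPM, and 3 of 7 fibroblast markers rose, from 488 to 1869 CPM to 2131 to 7466 CPM. With cilengitide the 3 sums were 35090 to 70280, 3620 to 7836 and 2178 to 4016 CPM, and 4 keratinocyte markers rose and 4 leukocyte markers fell against vehicle. In the first table, at day 14, 5 of 8 leukocyte, 4 of 6 endothelial and 3 of 7 fibroblast markers rose in Col5a1CKO wounds. None of the 8 keratinocyte markers was called there, with a median log2 fold change of -1.83. Their sum had a median of 35950 CPM in WT (32540 to 159800) and of 820 CPM in Col5a1CKO wounds (42.8 to 61810). The summed fibroblast markers had medians of 8529 CPM in WT (515 to 9668) and 8051 CPM in Col5a1CKO wounds (2119 to 12090), and the leukocyte markers of 3066 (1398 to 9339) and 7844 CPM (2208 to 21270). None of the adipocyte and skeletal muscle markers tested was called in any of the 9 comparisons. The part of the cell mixture in the enzyme levels was not tested.

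Each enzyme was also set against collagen RNA, as counts per 1000 counts of the mean of Col1a1, Col1a2 and Col3a1 in the same wound, with no test. This ratio does not remove the part of the cell mixture. Lox had 12.3, 8.58, 18.7 and 11.5 per 1000 collagen counts in WT and 31.3, 24.4, 34.4 and 44.6 in Col5a1CKO wounds with vehicle, which did not overlap. With cilengitide it had 16.3, 14.0, 13.1 and 22.5, again under each Col5a1CKO wound with vehicle and overlapping WT. Loxl2 had 18.005, 25.1, 36.1 and 26.5 in WT, 72.4, 46.0, 76.4 and 90.2 in Col5a1CKO with vehicle, and 39.4, 37.8, 27.6 and 55.7 with cilengitide. Between the vehicle groups Lox, Loxl2, Loxl3 and Plod2 lay higher per collagen without overlap, 4 of 10 genes beside 3.27% of all genes. Between cilengitide and vehicle Lox was lower without overlap, beside 1.12% of all genes. These counts moved with the collagen chosen: per Col1a1 alone 5 enzymes were lower with cilengitide than with vehicle (Lox, Loxl2, Loxl3, Loxl4 and Plod1), beside 4.02% of genes, and Lox, Loxl2 and Loxl3 were higher between the vehicle groups, beside 3.36%.

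In the first table, at day 14, none of the 10 separated Col5a1CKO from WT wounds per collagen, where 0.118% of all genes did so as higher and 0.773% as lower. None separated the wounds with WT fibroblasts from WT wounds either (1.78% and 6.39% of genes). At day 19 Loxl2 was higher in Col5a1CKO wounds without overlap, beside 0.575% of genes, and Loxl4, Plod1 and P4ha1 were lower, beside 37.4% of genes. From day 14 to day 19 Lox was lower per collagen in WT wounds (1.54% of genes), and Lox, P4ha1 and P4ha2 were lower in Col5a1CKO wounds (32.7% of genes), in which Col1a1 itself rose (log2 1.59, adjusted p = 0.0359, standard error 0.38). Per Col1a1 alone, Loxl2 and Loxl3 were higher at day 19 in Col5a1CKO than in WT wounds (0.542% of genes) and Loxl4, Plod1, P4ha1 and P4ha2 lower (43.6%). From day 14 to day 19, by that measure, Lox, Loxl2 and P4ha2 were lower in WT wounds (5.41%) and 8 of the 10 in Col5a1CKO wounds (58.6%).

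Other genes of the collagen pathway were counted by lists, beside the 5.57% of all genes that rose at day 14 and the 17.5% that rose with vehicle. At day 19, and for WT fibroblasts against none in Col5a1CKO wounds, 0 genes of these lists or of the TGF-beta, hypoxia and cell type lists were called. Of 10 other collagen-modifying enzymes, which include the beta subunit P4hb and the prolyl 3-hydroxylases, none was called at day 14. With vehicle 3 of them rose in Col5a1CKO wounds, among them the collagen galactosyltransferase Glt25d1 (log2 1.19, adjusted p = 0.0148) and P4hb (1.004, adjusted p = 0.0197). The prolyl 3-hydroxylase Leprel1 fell (-2.004, adjusted p = 0.00167), and it rose with cilengitide (1.34, adjusted p = 0.0201). Of 7 procollagen chaperones and export factors, 2 rose at day 14 and 5 with vehicle, among them in both Fkbp10, a chaperone known to act with the lysyl hydroxylases (1.43, adjusted p = 0.0267, and 1.79, adjusted p = 0.0273). Of 7 procollagen proteinases and enhancers, 2 rose at day 14 and 4 with vehicle, in both of them Bmp1, which cleaves procollagen and activates the lysyl oxidase proenzyme (1.57, adjusted p = 0.00727, and 2.01, adjusted p = 0.0146).

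Fibrillar collagen genes were counted as the substrates. Of 8 fibrillar collagen genes 1 rose at day 14 and 2 with vehicle, and Col5a3, the alpha 3 chain of type V collagen, was in both (1.77, adjusted p = 0.00691, and 2.07, adjusted p = 0.00412). Col1a1 had log2 fold changes of 1.13 (adjusted p = 0.186) and 0.98 (adjusted p = 0.342). Of 10 TGF-beta target genes 6 rose at day 14 and 9 with vehicle, among them Ctgf (2.33, adjusted p = 0.0122, and 3.14, adjusted p = 0.00161) and Thbs1, which encodes thrombospondin 1 (2.98, adjusted p = 0.0189, and 5.42, adjusted p = 0.00248). None of the 10 was called in wounds with WT fibroblasts against WT. Thbs1 fell with cilengitide (-2.85, adjusted p = 0.0269). Of 12 hypoxia-induced genes 1 rose at day 14 and 4 with vehicle, among them the glycolytic regulator Pfkfb3 in both (2.22, adjusted p = 0.00759, and 3.28, adjusted p = 0.00934).

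Pearson's r of log2 CPM between pairs of the 10 had a median of 0.801 over the 23 wounds of the first table, from 0.437 for Plod2 with Plod3 and 0.494 for Loxl4 with Plod3 to 0.962 for Loxl1 with Plod1, and of 0.926 over the 12 wounds of the cilengitide table. In the latter, but not over the 23 wounds, the lowest 3 of 45 pairs each held P4ha1, with Loxl1 (0.548), Loxl4 (0.650) and Plod2 (0.655), and the highest was Loxl2 with Loxl3 (0.988). These values are descriptions over wounds that share groups, library sets and cell mixture.

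Genes whose pattern was most like that of an enzyme were ranked over 13793 genes by the lower of its r in both tables. For Lox these were Sulf1 (0.969 and 0.968), which edits heparan sulfate, and Rcbtb1. For Loxl1 they were Efemp2 (0.950 and 0.959), an elastic fibre protein, and Dlg4, and for Loxl2 Angptl2 (0.972 and 0.995) and Srpx2. Loxl3 was followed by Rrbp1 (0.950 and 0.966) and 6230409E13Rik, and the rare Loxl4 by Naalad2 (0.852 and 0.846) and E130203B14Rik. Plod1 was most like the chaperone Fkbp10 (0.965 and 0.966) and the proteinase Mmp14, and Plod2 like Fkbp14 (0.955 and 0.955) and Rhobtb3. Plod3 went with the integrin gene Itga5 (0.952 and 0.974) and Galns, P4ha1 with Fndc3a (0.916 and 0.986) and Tnfrsf23, and P4ha2 with Serpinf1 (0.957 and 0.978) and the prolyl 3-hydroxylase Lepre1.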

How the data were processed

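RNA of the wound punches was sequenced in 35 libraries, and raw counts per transcript or gene are the values the authors deposited. Per the methods of the study, reads were aligned with HISAT2 to mouse build NCBI37/mm9 and counted over RefSeq exons in SeqMonk, and it is not stated that this also holds for the cilengitide libraries. The strand setting is not given in the sources used here. Of several RefSeq rows with a symbol the one with the largest total was kept. Rows without a symbol (30 and 1, at most 0.0694% and 0.0002% of counts) were left out, and 0 columns of single samples went unused. Depth limits the precision of low genes such as Loxl4, and errors are the spread between wounds. Per the study's methods replicates are separate biological ones. The labels name no animals, and p-values measure the spread between these samples.

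CPM and RPKM were computed here from the counts, CPM with TMM scaling over all wounds of a table and RPKM without it. The library total used for RPKM is that over all rows, repeated RefSeq rows of a symbol included. Each pair of groups was fitted in edgeR 4.0.16 (R 4.3.3) with TMM scaling, filterByExpr (minimum count 10) and the robust quasi-likelihood test, with Benjamini-Hochberg adjustment over all genes. Calls needed both an adjusted p under 0.05 and a 2-fold difference or more. The difference between both days came from the same test, and differences between library sets are fitted log2 values of that model. Scripts were tested on simulated data. Tables and figures used Python 3.11.15, numpy 2.4.6, pandas 2.3.3 and matplotlib 3.10.9. The text names all 10 enzymes, in each list up to 3 called genes with the smallest adjusted p per comparison, the 2 genes most alike to each enzyme, and Col5a1; genes named beyond that (Col1a1, P4hb and the like) were chosen after their values were seen. The enzymes and lists were chosen with earlier results of these data known. Alternatives were DESeq2 1.42.0, other scalings, no filter beyond 1 count, all groups in one fit, a replicate block, a 3-fold or no fold limit, summed RefSeq rows, fits within or adjusted for library sets, Col1a1 alone as the collagen and leaving out each library. Promoters of the other 5 genes and proteins were not used here.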

Additional observations from a re-analysis of the deposited data

Results flagged for a closer look

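Of 50 sets of values, which are the 10 enzymes in each of the 5 groups of 4 to 7 wounds, 1 held a wound far from the others. Plod3 had 93.77 CPM in cilengitide replicate 1, while the other 3 wounds with cilengitide had 107 to 108 CPM, so that the gap to its nearest neighbour was 0.960 of the whole range. Chance alone marks about 1 in 20 such sets. All 4 wounds lay under the Col5a1CKO wounds with vehicle, the lowest of which had 156 CPM.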

How the results depend on the processing

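Of 1550 refits of single enzymes, 1321 kept direction and side of the threshold, 80 gained and 83 lost a call, and 66 turned direction, none of them a called value. The cause of the changes was not tested unless stated. Of the 10 enzymes, 5 were called at day 14 between genotypes, and 1 was at 3-fold, 2 in the lower library set, 10 in the upper set, 8 with the set as covariate and 3 to 6 with single libraries left out. At day 19 it was 0, 1 with DESeq2 and 0 to 1 with libraries left out. With WT fibroblasts against Col5a1CKO it was 0, and 3 lower (Lox, Loxl3, Plod2) with the replicate block. Under that block 9.33% of all genes rose and 7.42% fell, against 0 genes without it. The block kept only letters found in both groups, here a, b and c. Those Col5a1CKO and WT wounds are all in the lower set and the fibroblast wounds in the upper. Treatment and library set cannot be told apart in such a fit. With WT fibroblasts against WT it was 1, 0 at 3-fold, 3 with DESeq2 and 3 with the replicate block. It was 10 in the upper set, 9 with the covariate and 0 to 2 with libraries left out. Of all genes, DESeq2 called 5.09% higher and 6.37% lower there, and the block 9.98% and 11.8%. The upper set called 19.8% and 11.2%, and the covariate fit 10% and 6.67%. Between days in WT wounds it was 0, 1 with DESeq2 or library size only, 2 with all groups in one fit, 6 in the upper set or with the covariate and 0 to 2 with libraries left out. All genes called higher there were 3.93% with DESeq2, 4.74% with library size only, 5.87% with all groups, 14.2% in the upper set and 5.47% with the covariate. Between days in Col5a1CKO wounds it was 1, 0 at 3-fold, with all groups, in the upper set or with the covariate, and 0 to 1 with libraries left out. There 0.76% of all genes were called higher with all groups, 0% in the upper set and 0.763% with the covariate. Between the vehicle groups it was 8, and 7 to 9 with libraries left out. For cilengitide against vehicle it was 1, 0 at 3-fold, 4 at any fold, 2 with DESeq2 and 0 to 5 with libraries left out, and against WT 4, 1 with all genes of at least 1 count or all groups in one fit, and 0 to 5. DESeq2 called 7.68% of all genes higher and 7.96% lower for cilengitide against vehicle. Against WT, 3.66% of all genes were called higher with genes of at least 1 count and 1.95% with all groups in one fit. Per collagen, 13 enzyme and comparison pairs did not overlap, and 25 with Col1a1 alone.

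Whether the letters pair the wounds is not known. Correlations of deviations from group means between wounds of the same letter ran from -0.52 to 0.48. They cannot decide this, since the deviations also hold the library sets and some groups have only 3 wounds. The replicate block also ended the day 14 calls of Loxl1 and Plod1 between genotypes and brought one of Loxl2. It called 5.27% of all genes higher there, against 5.57% in the main analysis. DESeq2 called 1572 genes higher and 920 lower at day 14, against 800 and 390, and 708 and 782 against 3 and 0 at day 19. Scaling by library size alone put the median log2 value of all genes at 0.43 between days in WT wounds, against 0.0029 in the main analysis.

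Turned log2 values, none past the threshold in the main analysis, were as follows. With library size only, fibroblasts against Col5a1CKO gave 0.073 for Loxl1 and 0.052 for Plod3, fibroblasts against WT 0.083 for Lox, and the difference between days in genotype effect 0.068 for Lox, 0.11 for Loxl2 and 0.32 for P4ha2. With all genes of at least 1 count Loxl1 gave 0.012 for fibroblasts against Col5a1CKO. In the upper set that comparison gave 0.041 for Loxl3, 0.084 for Plod2 and 0.12 for P4ha1, and with the covariate 0.025 for Plod2 and 0.072 for P4ha1. Fibroblasts against WT gave 2.31 for Lox and 2.25 for Plod2 in the upper set, and 2.33 and 2.27 with the covariate. Between days in WT wounds Lox and Plod2 gave 2.10 and 2.14 in the upper set and 2.09 and 2.13 with the covariate. In Col5a1CKO wounds Lox, Plod2 and P4ha1 gave 1.30, 1.77 and 0.35 in the upper set and 1.25, 1.71 and 0.29 with the covariate, and Plod2 gave 0.0014 with DESeq2 and 0.00065 with its size factors. The difference between days in the upper set gave 0.73 for Lox, 0.90 for Loxl2, 0.30 for Plod2 and 0.67 for P4ha2. With the replicate block, fibroblasts against WT gave -0.45 for Loxl4 and -0.072 for P4ha2. Between days it gave -0.29 for Loxl2 and -0.091 for P4ha2 in WT wounds, and -0.0053 for Loxl4 in Col5a1CKO wounds. These block fits set upper-set against lower-set wounds only.

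With single libraries left out, Loxl4 ran from -0.42 to 0.058 at day 19. For fibroblasts against Col5a1CKO Loxl1 ran from -0.15 to 0.12 and Plod3 from -0.13 to 0.055, and against WT Lox from -0.25 to 0.37 and Loxl4 from -0.011 to 0.53. Between days in WT wounds Lox ran from -1.11 to 0.28, Loxl2 from -0.049 to 1.27 and P4ha2 from -0.032 to 0.88. In Col5a1CKO wounds Lox ran from -0.27 to 0.13, Plod2 from -0.27 to 0.17 and P4ha1 from -0.25 to 0.0051. For cilengitide against WT Loxl4 ran from -0.035 to 0.44.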

Other observations

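Col5a1CKO vehicle replicate 2 had 0 CPM of Y-linked RNA and 1.01 CPM of Xist, whereas the other libraries carried one or the other. Its enzyme levels lay within those of the other 3 wounds of its group or above them for Lox (891 CPM), Loxl1 (539 CPM) and Plod2 (99.9 CPM), and under them for P4ha1 (139 CPM).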
